A study of Mus musculus with 2 samples.

Results

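Neutrophil barcodes of mouse lung are described here, chosen by the transcripts they hold: at least 300 genes, at most 10% mitochondrial UMIs, 20 or more UMIs of S100a8 and S100a9 together, and 2 or more UMIs of Retnlg, Cxcr2 and Csf3r together. Barcodes with 5 or more UMIs of C1qa, C1qb and C1qc, or more than 1 UMI of Cd3d, Cd3e and Cd3g, were left out. A UMI (unique molecular identifier) stands for 1 captured RNA molecule, and a barcode for 1 droplet, which usually holds 1 cell. Of 15001 barcodes in the matrix, 199 met the rule. The 5 markers S100a8, S100a9, Retnlg, Cxcr2 and Csf3r were therefore selected on, and their presence is not a result.

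The study compared lungs of wild-type mice and of mice mutant for Siah1a and Siah2, which encode ubiquitin ligases, after treatment with urethane, a chemical carcinogen of mouse lung. The labels name 1 WT sample and 1 Siah1a/2 KO sample, both taken 7 weeks after the first urethane treatment, and both sorted for live CD45+ cells, the white blood cells. Libraries were made with a 10x Genomics 3′ kit (v3.1) that reads the end of each transcript. The labels used here do not say how the mutant alleles were made, the age or sex of the mice, or how many mice went into a sample. The barcodes end in 1 or 2, and because neither ending is given a genotype by any label, they are called library 1 and library 2 throughout. Every ratio below is library 2 over library 1, with 1 library on each side: no test between them was possible, and intervals cover counting error only. The exception is the interval of a list's median, which covers the spread of its genes.

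Neutrophils are short-lived phagocytes that leave the bone marrow with granules of antimicrobial proteins already packed. They are drawn into tissue by chemokines acting on Cxcr2, are kept alive by growth factors such as the ligand of Csf3r, and in inflamed or tumour-bearing lung they make interleukins and chemokines of their own. S100a8 and S100a9 form calprotectin, the most abundant protein pair of the neutrophil cytoplasm, and Retnlg encodes a small secreted resistin-like protein typical of circulating mouse neutrophils.

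Neutrophil barcodes made up a larger share of library 2 than of library 1. Library 1 held 71 among 8246 barcodes that passed the gene and mitochondrial limits, a share of 0.861% (exact Clopper-Pearson 95% interval 0.673 to 1.08). Library 2 held 128 of 6260, or 2.04% (1.71 to 2.43). The ratio of the shares was 2.37 (1.76 to 3.22). These intervals treat barcodes as independent and hold no error between animals, so the difference was not tested. The gene minimum and the mitochondrial limit removed no barcode that met the other conditions. Without the receptor minimum, 10 barcodes of library 1 and 13 of library 2 would have entered, and without the Cd3 limit 5 and 13. The S100 minimum weighed most: without it 152 and 107 barcodes would have entered, giving 223 and 235 members, shares of 2.70% and 3.75% and a ratio of 1.39 (1.15 to 1.67). The size of the difference in share therefore depends on whether an S100 minimum is set at all. Without one the members were also deeper, with a median of 1732.5 genes against 990 under the rule. Just inside the S100 limit, at 20 to 29 UMIs, stood 3 barcodes of library 1 and 15 of library 2. Just outside it, at 10 to 19 UMIs, stood 8 and 11 barcodes that met all other conditions, so a minimum of 10 would have added these alone.

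The barcodes were shallow as a whole, and few were shallower than a usual limit of 500 genes. Their median depth was 2562 UMIs and 986 genes in library 1, and 2664.5 UMIs and 994.5 genes in library 2. All other passing barcodes had medians of 8555 and 7841.5 UMIs. Only 4 members had under 500 genes, all in library 2 and at 331 to 396 genes, while 195 had 500 or more. At the other end, 19 barcodes had 2000 or more genes, 8 in library 1 and 11 in library 2. No member lay between 1677 and 2267 genes, so these 19 stood apart, and they held 34.9% of the neutrophil UMIs of library 1 and 30.5% of those of library 2. The median mitochondrial share was 0.647% and 0.626%, against 1.25% and 1.48% in the other barcodes. Malat1, a nuclear non-coding RNA, made up a median of 3.61% and 2.76% of a neutrophil barcode's UMIs, against 1.37% and 1.32% elsewhere. Of 11 barcode sequences that occurred in both libraries, 0 were neutrophil barcodes.

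**Figure D1:**
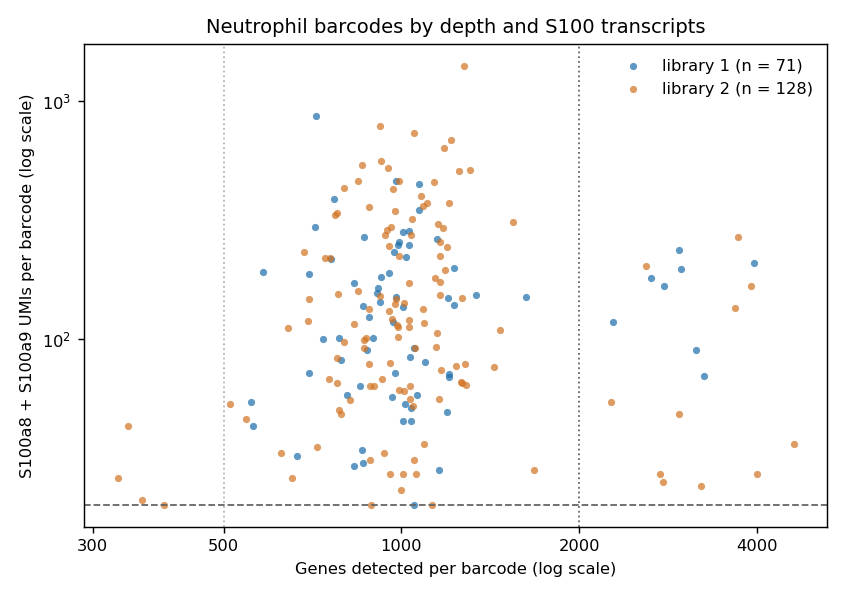
Genes detected (x axis, log scale) against summed S100a8 and S100a9 UMIs (y axis, log scale) of each of the 199 neutrophil barcodes, coloured by library. The dashed line is the limit of 20 UMIs and the dotted lines mark 500 and 2000 genes: 4 barcodes lie left of the first and 19 right of the second, with an empty stretch before them.

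The deep barcodes carried transcripts of other white blood cells, and results that rest on them are given with and without them. Among the 8 of library 1, up to 20 UMIs of 5 natural killer (NK) cell markers were found in a barcode. Among the 11 of library 2, 1 barcode held 142 UMIs of mast cell or basophil markers, and others up to 134 UMIs of macrophage markers and 104 of monocyte markers. In members under 2000 genes the highest count in a barcode was 1 UMI for the NK list, 1 for the mast cell list, 4 for the B cell list, 14 for macrophage and 12 for monocyte markers. Summed over those members, macrophage markers stood at 503 and 250 CPM (UMIs per 1000000 UMIs of the sum) and monocyte markers at 447 and 341. No doublet caller was run, so droplets with 2 cells were looked for by these markers alone.

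Of the look-alike cells, the clearest absence was that of eosinophils. They share the granulocyte lineage with neutrophils, and 4 of their 5 marker genes, Prg2, Epx, Il5ra and Ear6, were at 0 in both libraries. The remaining marker, Ccr3, gave 1 UMI in library 1 and 0 in library 2. Genes of neutrophil precursors were at 0 (Elane, Mpo and Fcnb) or low: the 8 precursor genes together gave 29 UMIs in library 1 and 21 in library 2. Of 7 genes of the azurophil granule in the matrix, which is filled early in the marrow, 1 passed 50 UMIs, the protease gene Ctsc. The lung epithelial genes Sftpc, Scgb1a1 and Ager were at 0, while Sftpb and Epcam together gave 0 UMIs in library 1 and 2 in library 2. Markers of macrophages and monocytes were not absent: 12 members of library 1 and 12 of library 2 held 3 or more macrophage UMIs, 6 and 8 of them deep, and 15 and 17 held 3 or more monocyte UMIs, 8 and 9 of them deep. In library 2, 1 deep barcode had 24 S100 UMIs against 82 macrophage UMIs, and another 25 against 63, so for some deep barcodes the marker counts go against the label.

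Among genes at 200 CPM or more in the neutrophils of both libraries, the 15 highest over all other barcodes included 4 of the 5 markers used by the rule. The other 11 were not used by it. They included the granule and secreted genes Lcn2 (lipocalin, which binds bacterial siderophores), Mmp9 (gelatinase) and Lrg1. Also among them were the stefin genes Stfa2l1 and Cstdc4, which encode inhibitors of cysteine proteases. The others were the lipid regulator G0s2, the cytokine Il1f9, the protease Asprv1, the histamine-forming enzyme Hdc, the receptor Hcar2, and Ankrd33b. Hdc had 2158 CPM in library 1 against 2420 in library 2, against 20.8 CPM in the other barcodes. G0s2 stood at 4578 and 3227 CPM against 8.66, and Mmp9 at 667 and 681 against 2.40. The marker receptor Csf3r had nearly the same level in both libraries, at 1022 and 1052 CPM (log2 ratio 0.04, -0.18 to 0.27). Cxcr2 stood at 590 and 1061 CPM (0.84, 0.57 to 1.13), and Retnlg (chr16:48872621-48874496) at 1701 and 4380 CPM (1.36, 1.21 to 1.52). S100a8 (0.25) and S100a9 (0.33) differed less. Because the rule asks for a minimum of these genes, their ratios are a description.

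Within each library the barcodes spread widely around these sums. Retnlg ranged from 0 to 212 UMIs per 10000 UMIs of a barcode in library 1, with a median of 4.37, and from 0 to 714 in library 2, with a median of 4.57. The medians were close and the upper quartiles apart, at 29.6 and 50.5 per 10000. The shares of barcodes with any Retnlg UMI were 56.3% and 61.7%, or 40.8% and 43.8% after thinning each barcode to 500 UMIs. In a T cell set of 3577 and 2921 barcodes, whose median depths were 7619 and 6992 UMIs, 0.587% and 0.685% held one. That set was limited to barcodes with under 20 S100 UMIs, which favours a low share. Cxcr2 was found in 73.2% and 90.6% of barcodes, and in 28.2% and 43.8% after thinning. For Retnlg the libraries differed more in the barcodes with the highest levels than in how many held it. The 2 highest barcodes of library 2 stood at 714 and 674 per 10000, so the sum of library 2 rests in part on few barcodes. Among members under 2000 genes with 20 or more per 10000, the medians were closer, at 56.8 and 69.3.

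Across 1944 genes with 50 or more UMIs in both neutrophil sums together, 60 were more than 2-fold higher in library 2 (3.09% of those tested) and 46 more than 2-fold lower (2.37%). The median log2 ratio of all of them was 0.08. Without the 19 deep barcodes, 1295 genes reached 50 UMIs, with 38 past 2-fold higher (2.93%) and 20 lower (1.54%). These shares are the background for the lists below. They carry no error between animals.

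**Figure D2:**
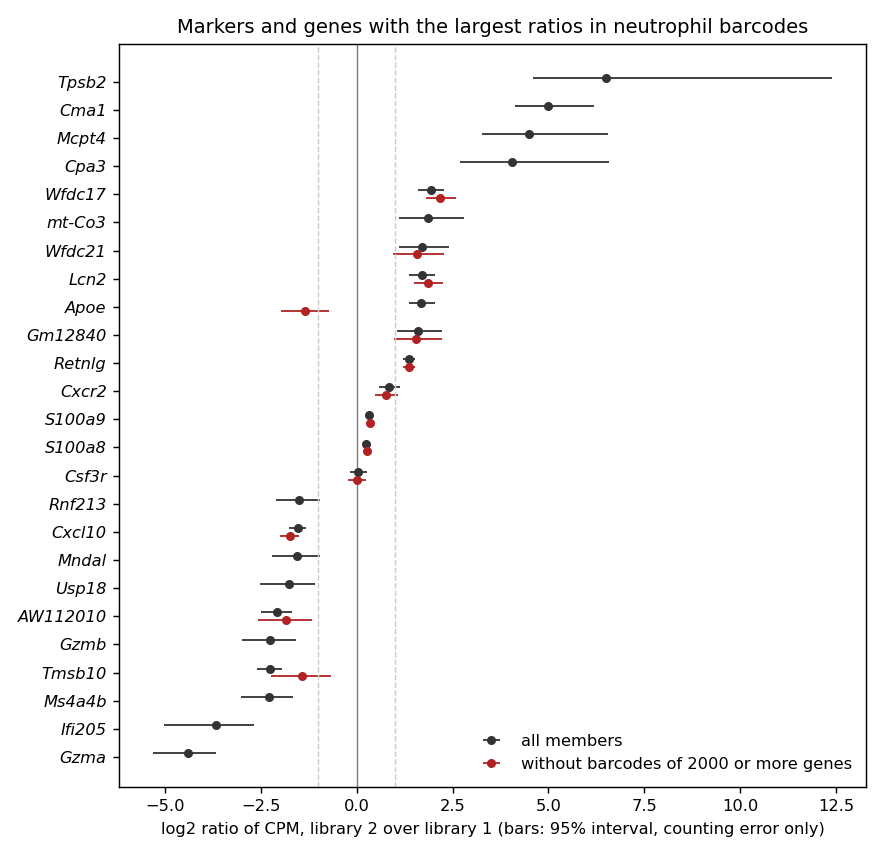
Log2 ratio of CPM, library 2 over library 1 (x axis), of the 5 markers and of the 10 highest and 10 lowest genes (y axis) among those at 200 CPM or more whose interval leaves out 0. Black points are all members, red points members under 2000 genes, shown where a gene keeps 50 UMIs. Bars are 95% intervals of counting error: Wfdc17, Wfdc21, Lcn2, Gm12840, Retnlg, Cxcl10, AW112010 and Tmsb10 stay past 2-fold in both, and Apoe changes side.

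Secreted and granule proteins held genes on both sides. In the specific granule list 5 of 12 were detected, 1 past 2-fold higher in library 2 (Lcn2) and 1 lower (Chil3, -1.24), with a median of 0.20. Without the deep barcodes 3 were detected, with Lcn2 past 2-fold. Wfdc17, a small whey acidic protein-domain protein with protease-inhibitor folds, had 356 CPM in library 1 against 1359 in library 2 (log2 1.93, 1.61 to 2.27), and was found in 31.0% and 60.2% of barcodes. The related Wfdc21 stood at 97.0 and 322 CPM (1.70, 1.10 to 2.42). Lcn2 stood at 343 and 1120 CPM (1.70, 1.37 to 2.06). Without the deep barcodes their log2 ratios were 2.17, 1.57 and 1.87. Wfdc17 (chr11:83703991-83706268) and Wfdc21 (chr11:83746940-83752642) lie close together on the plus strand, and Lcn2 at chr2:32384633-32388252 on the minus strand (GRCm38). Lcn2 was present in a similar share of barcodes in both libraries, 36.6% and 40.6%, and in the T cell set in 0.252% and 0.342%. In library 2 1 barcode gave 91 of its 477 UMIs.

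Other genes of the granule and secreted lists went the other way or differed little. Stefins were lower in library 2. Cstdc4 stood at 1305 and 545 CPM (log2 -1.26, -1.51 to -1.01), Stfa2l1 at 986 and 587 (-0.75), and Stfa1 at 186 and 14.1 (-3.62, -5.24 to -2.49), the last in 11.3% and 2.34% of barcodes. Stefin genes are near copies of each other, with Stfa2l1 at chr16:36156811-36161953 and Cstdc4 at chr16:36184212-36188111, so how reads were divided among them is uncertain. Slpi, an inhibitor of neutrophil elastase, stood at 4001 and 2563 CPM (-0.64, -0.77 to -0.52). Mmp9 (0.03), the haemoglobin scavenger gene Hp (0.20) and the integrin gene Itgam (0.28) differed little. In the whole list of gelatinase granule and secreted genes, which also holds the stefins, 12 of 17 in the matrix reached 50 UMIs. Of them 2 were past 2-fold each way, and the median was 0.09.

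Receptors of chemoattractants and growth factors mostly differed little between the libraries. Of 19 detected, 1 was past 2-fold, the formyl peptide receptor Fpr1 at 56.6 and 129 CPM (log2 1.15, 0.32 to 2.15), and the median was 0.05. Ccr1 (0.05), Il1r2, the decoy receptor of interleukin-1 (-0.16), C5ar1, the receptor of complement C5a (0.20), and Cxcr4, which holds neutrophils in the marrow (0.37), differed little. Among Fc, toll-like and innate receptors, 16 were detected and 0 were past 2-fold. Adhesion genes (12 detected), transcription factors (23) and the list of glycolysis and hypoxia (16) also held 0 genes past 2-fold in either direction. In the transcription factor list Cebpb, a regulator of emergency granulopoiesis, had the highest ratio, at 2865 and 4472 CPM (0.64, 0.52 to 0.77). Without the deep barcodes some of these counts were no longer 0. Among 22 transcription factors, Max was then past 2-fold higher (1.30, 0.35 to 2.51) and Jun past 2-fold lower (-1.16), while Cebpb was at 0.51. Among 16 innate receptors the adaptor gene Myd88 was past 2-fold higher (1.27, 0.32 to 2.48), and among 19 chemoattractant and growth factor receptors Fpr1 (1.14) and Ifngr2 (1.07, 0.10 to 2.29). Adhesion (10 detected) and glycolysis (14) stayed at 0.

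Cytokines and chemokines leaned lower in library 2, with 4 of 16 detected past 2-fold lower and 1 higher, and a median of -0.46. Ccl4, a chemokine for monocytes and lymphocytes, had 4910 CPM in library 1 against 2035 in library 2 (log2 -1.27, -1.40 to -1.14). The shares of barcodes with Ccl4 were close, at 42.3% and 41.4%, against 60.5% and 60.2% of the deeper T cell set. After thinning to 500 UMIs they were 32.4% and 27.3%, against 23.1% and 24.3%. Ccl3, a close relative of Ccl4, stood at 2473 and 1206 CPM (-1.04, -1.21 to -0.86), and was found in 49.3% and 32.8% of barcodes. T cells can make Ccl3 themselves, and 32.9% and 26.4% of the deeper T cell set held Ccl3, while after thinning to 500 UMIs it was left in 21 of 71 and 23 of 128 neutrophil barcodes, against 7.02% and 6.85% of the T cell set. Il1rn, the interleukin-1 receptor antagonist, stood at 897 and 408 CPM (-1.13, -1.43 to -0.84). Cxcl1 was the lowest (-3.24), on UMIs from 4.23% and 0.781% of barcodes. Il1b and Cxcl2 were each found in at least 85.9% of the barcodes of a library, and differed less: Il1b (interleukin-1 beta) stood at 20047 and 18032 CPM (-0.15), and Cxcl2, a ligand of Cxcr2, at 15792 and 11081 (-0.51, -0.57 to -0.45). Without the deep barcodes 14 cytokines were detected, with 2 past 2-fold lower, 1 higher and a median of -0.48 (-0.87 to 0.35 over the genes).

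**Figure D3:**
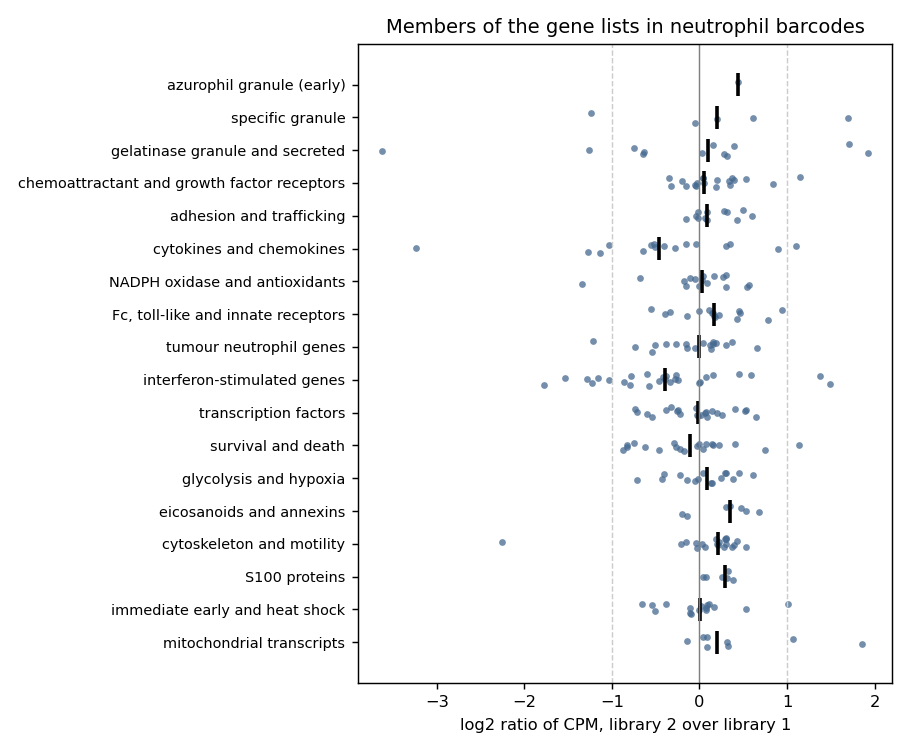
Log2 ratio of CPM, library 2 over library 1 (x axis), of every list member with 50 or more UMIs (points), with the list's median as a black bar. Medians of cytokines (-0.46) and interferon-stimulated genes (-0.40) lie lowest among these lists, and within the latter the points right of the dashed 2-fold line are Ifitm1 and Ifitm6.

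Interferon-stimulated genes lay on both sides, with more of them lower in library 2. Of 27 detected, 20 were below 0 and 7 above. Past 2-fold were 6 lower in library 2 and 2 higher, and the median was -0.40 (-0.80 to -0.01 over the genes). Rsad2, which encodes the antiviral enzyme viperin, had 3774 CPM in library 1 against 1554 in library 2 (log2 -1.28, -1.43 to -1.14). Cxcl10, a chemokine for activated T cells, stood at 1928 and 664 CPM (-1.54, -1.75 to -1.32), and Isg15, a ubiquitin-like modifier, at 4069 and 2723 (-0.58, -0.70 to -0.46). The membrane proteins of the Ifitm family, which block virus entry, were on the other side. Ifitm1 stood at 849 and 2387 CPM (1.49, 1.28 to 1.71), Ifitm6 at 150 and 392 (1.38), Ifitm2 at 2893 and 4359 (0.59) and Ifitm3 at 2315 and 3157 (0.45). Ifitm1 was found in 54.9% and 67.2% of neutrophil barcodes, and in 28.2% and 37.4% of the deeper T cell set. After thinning these shares were 28.2% and 42.2% in neutrophils, and 9.06% and 17.8% in the T cell set. The higher Ifitm1 share in library 2 was therefore not confined to neutrophils. Part of the lower side rested on the deep barcodes. Without them 25 genes were detected, 2 were lower (Cxcl10 at -1.74 and Rsad2 at -1.22) and 2 higher (Ifitm1 and Ifitm6). The median was then -0.18, and its interval over the genes, -0.44 to 0.18, holds 0. Usp18 was at -1.77 with them and -0.34 without, and Slfn5 at -1.23 and -0.15.

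Several of the other large ratios were of genes typical of other cells. The mast cell proteases Tpsb2, Cma1, Mcpt4 and Cpa3 had log2 ratios of 4.06 to 6.51. A single barcode gave 235 of 235 Tpsb2 UMIs and 514 of 517 Cma1 UMIs in library 2. The cytotoxic gene Gzma stood at 760 and 35.2 CPM (-4.39), and at -0.41 (-1.67 to 0.94) without the deep barcodes. Apoe, a macrophage gene, turned from 1.69 to -1.34. Tmsb10 and mt-Co3 differed in other cells as well. Tmsb10 stood at 1184 and 246 CPM in neutrophils, at 3677 and 2067 in the T cell set and at 2799 and 1505 in a monocyte set. For mt-Co3 the values were 60.6 and 225 CPM in neutrophils and 165 and 400 in the T cell set. AW112010, lower in neutrophils of library 2 at 756 and 178 CPM (-2.08), was at 3405 and 3329 CPM in the T cell set. Ribosomal protein genes had a median of -0.42 over 80 detected, with 72 of them below 0 and 2 past 2-fold.

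Siah1a and Siah2, the genes mutated in 1 of the samples, were hardly seen. Siah1a gave 0 UMIs in the neutrophils of library 1, where 3 UMIs would be 12.1 CPM, and 7 in library 2. Siah2 gave 1 and 6 UMIs. At this depth the neutrophils do not bear on which library is which, and these values were not used for that.

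Because Retnlg was absent from many barcodes and high in others, members under 2000 genes were divided into 3 ranges by their Retnlg UMIs per 10000. This division was chosen after the data were seen, and it is a cut through a continuous range, not a cell type. Library 1 had 27 barcodes with no Retnlg UMI, 14 under 20 per 10000 and 22 at 20 or more, called Retnlg-high. Library 2 had 42, 26 and 49. Near the border, between 10 and 40 per 10000, lay 14 barcodes of library 1 (5 below and 9 above) and 22 of library 2 (10 and 12). Depth was similar in the ranges, with medians of 2562, 2384.5 and 2386 UMIs in library 1 and 2424, 2648 and 2680 in library 2. The Retnlg-high share was 34.9% in library 1 (23.3 to 48.0) and 41.9% in library 2 (32.8 to 51.4), so the intervals overlap.

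Retnlg is itself one of the genes the rule uses: all 27 and 42 no-Retnlg members entered through Cxcr2 and Csf3r, while 2 and 3 Retnlg-high members entered only with the help of Retnlg. The comparison of the ranges is therefore a description, and the number of genes that differ in both libraries has no chance value beside it. Of 1294 genes, 42 were more than 2-fold higher in Retnlg-high barcodes in each library (3.25%) and 71 more than 2-fold lower in each (5.49%). After thinning to 1500 UMIs the counts were 11 and 41. The number of genes tested after thinning is not given here and may differ from 1294. The counts after thinning therefore cannot be read as shares of 1294, or as the part of the calls that was kept. Some granule and secreted genes were on the Retnlg-high side: 1 of 3 specific granule genes (Lcn2) and 2 of 12 gelatinase granule and secreted genes (Slpi and Wfdc21) were past 2-fold higher in both libraries, and 0 of 4 S100 genes. The collagenase gene Mmp8 differed in sign, at -0.47 (-1.77 to 0.67) in library 1 and 2.32 in library 2. Lcn2 stood at 334 CPM without Retnlg and 707 in Retnlg-high barcodes of library 1, and at 286 and 3352 in library 2. Pglyrp1, which binds bacterial peptidoglycan, stood at 584 and 1340 CPM in library 1 and at 423 and 1716 in library 2. The chemokine Ccl6 stood at 918 and 3984, and at 1743 and 4025. Mgst1, a glutathione transferase, and Hacd4, an enzyme of long-chain fatty acid synthesis, were also past 2-fold in both.

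The no-Retnlg side held inflammatory genes. Cxcl2 stood at 34031 CPM without Retnlg and 11337 in Retnlg-high barcodes of library 1 (log2 -1.58, -1.72 to -1.46), and at 18864 and 6567 in library 2 (-1.52, -1.64 to -1.40). Ccl3 stood at 4754 and 1489 CPM, and at 3151 and 297. Il1a, the other interleukin-1, gave 29 UMIs without Retnlg and 0 in Retnlg-high barcodes of library 1, and 27 and 0 in library 2. Icam1, an adhesion molecule, Socs1, a brake on cytokine signalling, the interferon-gamma-induced GTPase genes Igtp and Gbp5, and the lectin Clec4n were past 2-fold lower in Retnlg-high barcodes of both libraries. Of 14 cytokines, 7 were past 2-fold lower in both and 1 higher (Ccl6), with medians of -1.17 in library 1 and -1.50 in library 2, or -1.07 and -1.52 with genes at 0 UMIs set to the floor of 3 UMIs. Of 17 genes known from tumour neutrophils, 6 were lower in both and 0 higher, among them Cdkn1a, Atf3, Spp1 and Hilpda. Pairs of genes showed the same in single barcodes: Ccl3 was found in 63.0% of barcodes without Retnlg and 38.9% of those with it in library 1, and in 52.4% and 20.0% in library 2. Lcn2 was found in 25.9% and 41.7%, and in 21.4% and 54.7%. Siglecf, a surface marker of long-lived tumour neutrophils, did not reach 50 UMIs.

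**Figure D4:**
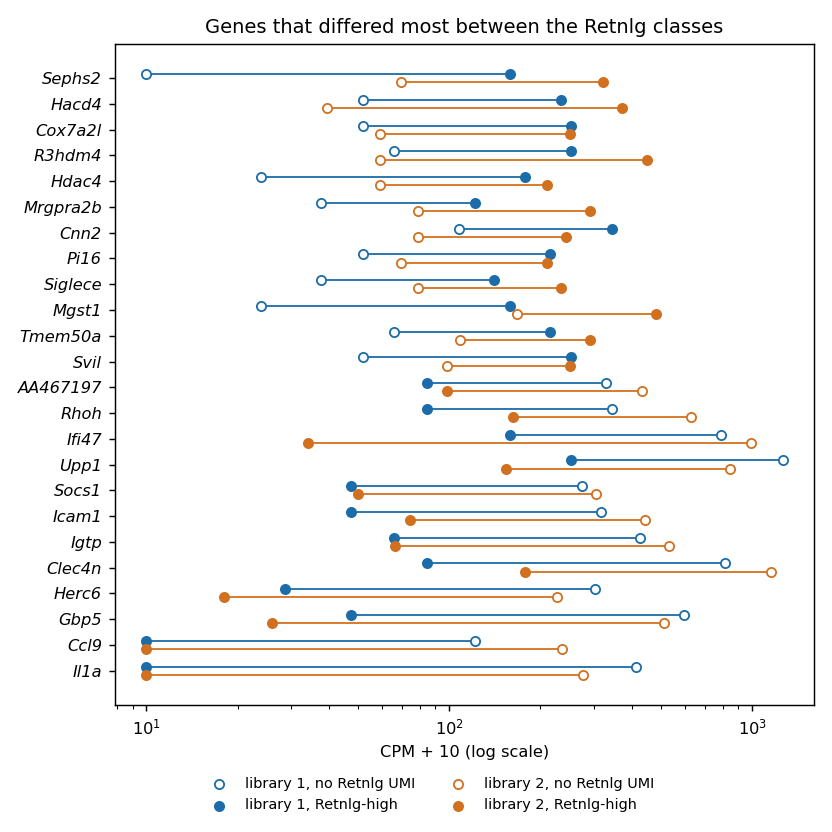
CPM plus 10 (x axis, log scale) of the 12 lowest and the 12 highest genes in Retnlg-high barcodes of both libraries (y axis), ranked by the ratio nearer to 0. Open circles are barcodes with no Retnlg UMI, filled circles Retnlg-high barcodes, blue library 1 and orange library 2; both libraries point the same way in each row, which the ranking requires.

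Interferon-stimulated genes other than the Ifitm family were low in Retnlg-high barcodes of library 2 and less so in those of library 1. Of 25 detected, 6 were past 2-fold lower in Retnlg-high barcodes of both libraries (Gbp5, Ifi47, Gbp2, Cxcl10, Ifit3b and Slfn1) and 0 higher, with medians of -0.39 in library 1 and -2.79 in library 2, or -0.42 and -2.84 at the floor. Over the whole list of 31, the median Retnlg-high barcode held 168 UMIs per 10000 in library 1 and 167 in library 2, and the sums were 28798 and 17664 CPM (log2 -0.71, -0.80 to -0.61). The Ifitm genes, which lie on the other side, were then left out, a choice made after their values were seen, and what follows holds for the rest alone. The list's 27 members outside the Ifitm family, whatever their level, were summed in each barcode. Without Retnlg the sums were alike: the median barcode held 143 UMIs per 10000 in library 1 and 180 in library 2, and 16 of 27 and 29 of 42 barcodes (59.3% and 69.0%) reached 100 per 10000. In Retnlg-high barcodes the median was 51.7 in library 1 and 30.8 in library 2. There 10 of 22 barcodes of library 1 reached 100 per 10000 (45.5%, 24.4 to 67.8), against 6 of 49 in library 2 (12.2%, 4.63 to 24.8), and these intervals overlap at their edges. The upper quartiles lay further apart than the medians, at 284 and 57.8 per 10000.

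In barcodes with no Retnlg UMI the 27 genes made up 25343 CPM in library 1 and 27065 in library 2 (log2 0.09, 0.01 to 0.18). In the middle range they made up 21472 and 17731 CPM (-0.28, -0.41 to -0.14). In Retnlg-high barcodes they made up 20906 and 4651 CPM (-2.17, -2.32 to -2.02). Without the 2 barcodes of each library with the most of these UMIs they made up 13331 and 3762 CPM (-1.82, -2.00 to -1.65). Over all neutrophil barcodes, deep ones included, the 27 genes made up 21562 and 13576 CPM (-0.67, -0.72 to -0.61). Other cells of the same libraries, likewise not divided, differed less. Their ratios were -0.09 in the T cell set, -0.20 in a macrophage set of 635 and 370 barcodes, and -0.23 in a monocyte set of 345 and 233. With 1 library on each side, whether the ratio differs between ranges was not tested.

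Single genes of the list are given for both ranges. In Retnlg-high barcodes Rsad2 had 5938 CPM in library 1 against 425 in library 2 (log2 -3.79, -4.25 to -3.38). Of the 22 barcodes of library 1, 2 gave 207 of its 319 UMIs and 8 held none; without the 2 highest barcodes of each library it stood at 2366 and 186 CPM (-3.64). Without Retnlg it stood at 4588 and 4027 CPM (-0.19, -0.40 to 0.03). Ifit1, which binds viral RNA, stood at 1322 and 80.2 CPM (-3.98, -5.16 to -3.08), against 639 and 1851 without Retnlg (1.52, 1.06 to 2.03). Isg15 stood at 4133 and 1066 (-1.95), and Cxcl10 at 1266 and 112 (-3.46), but 1 barcode gave 60 of the 68 Cxcl10 UMIs of library 1, and without the 2 highest of each library the ratio was -0.69 (-2.43 to 1.32). Ifit2 gave 40 UMIs in Retnlg-high barcodes of library 1, of which 2 barcodes gave 33, and 0 in those of library 2. Ifitm1 went the other way there, at 1284 and 3793 CPM (1.55, 1.20 to 1.95).

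**Figure D5:**
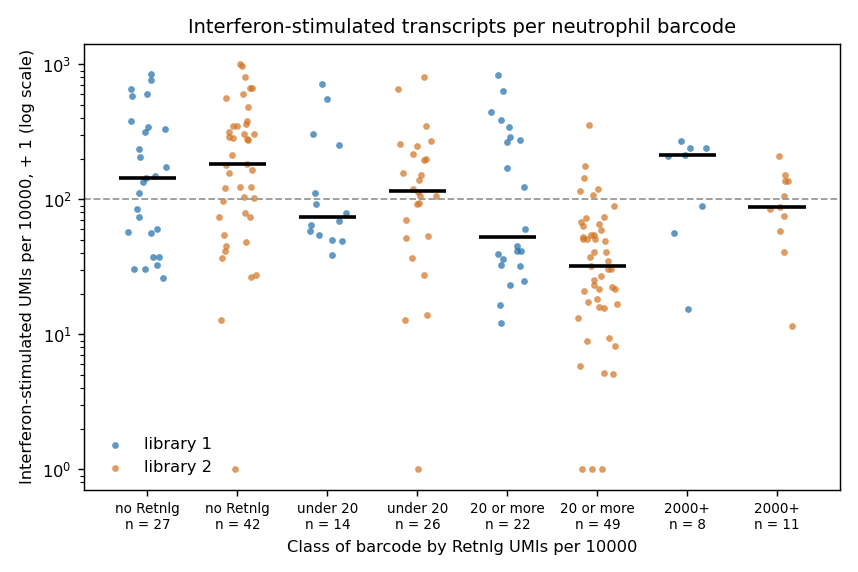
UMIs of 27 interferon-stimulated genes per 10000 UMIs, plus 1 (y axis, log scale), in each neutrophil barcode by Retnlg range (x axis: no Retnlg UMI, under 20, 20 or more per 10000, and barcodes of 2000 or more genes). The Ifitm genes of the list were left out after their values were seen. With them the median Retnlg-high barcode held 168 per 10000 in library 1 and 167 in library 2. Blue is library 1, orange library 2, black bars are medians and the dashed line is 100 per 10000, reached by 10 of 22 Retnlg-high barcodes of library 1 and 6 of 49 of library 2.

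Upstream sequence is shown for 4 of the interferon-stimulated genes named above, chosen because their windows hold the interferon motif, and for Cxcl2. Ifit2, with 40 and 0 UMIs, held no match of it. The windows are the 250 bases before the RefSeq start of the gene on GRCm38.p6, written 5′ to 3′ on the gene's strand. Capitals mark matches, on either strand, to GAAA, any 2 bases and GAAA again, the core of the interferon-stimulated response element, or in Cxcl2 to GGGA, any 2 bases and TTCC, a core of the NF-kB site. Rsad2 lies at chr12:26456453-26456702 on the minus strand, Cxcl10 at chr5:92348890-92349139 on the minus strand, Isg15 at chr4:156200819-156201068 on the minus strand, Ifit1 at chr19:34640639-34640888 on the plus strand, and Cxcl2 at chr5:90903649-90903898 on the plus strand.
Rsad2: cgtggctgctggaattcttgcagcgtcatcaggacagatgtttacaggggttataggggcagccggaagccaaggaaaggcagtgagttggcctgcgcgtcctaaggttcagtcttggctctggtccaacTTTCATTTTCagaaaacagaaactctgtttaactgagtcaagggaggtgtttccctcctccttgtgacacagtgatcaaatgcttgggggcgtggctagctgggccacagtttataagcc
Cxcl10: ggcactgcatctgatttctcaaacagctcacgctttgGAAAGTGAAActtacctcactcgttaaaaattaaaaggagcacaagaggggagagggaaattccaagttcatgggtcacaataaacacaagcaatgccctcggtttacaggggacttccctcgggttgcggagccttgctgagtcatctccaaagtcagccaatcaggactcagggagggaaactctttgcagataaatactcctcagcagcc
Isg15: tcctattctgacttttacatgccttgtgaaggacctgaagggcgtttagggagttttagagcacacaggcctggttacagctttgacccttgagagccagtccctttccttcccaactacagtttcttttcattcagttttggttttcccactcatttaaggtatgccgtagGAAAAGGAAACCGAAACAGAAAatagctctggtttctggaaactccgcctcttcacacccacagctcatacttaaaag
Ifit1: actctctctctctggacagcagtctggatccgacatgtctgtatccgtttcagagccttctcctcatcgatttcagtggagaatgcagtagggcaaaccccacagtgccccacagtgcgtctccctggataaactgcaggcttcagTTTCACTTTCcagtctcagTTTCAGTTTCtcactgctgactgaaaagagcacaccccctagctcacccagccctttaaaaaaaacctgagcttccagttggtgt
Cxcl2: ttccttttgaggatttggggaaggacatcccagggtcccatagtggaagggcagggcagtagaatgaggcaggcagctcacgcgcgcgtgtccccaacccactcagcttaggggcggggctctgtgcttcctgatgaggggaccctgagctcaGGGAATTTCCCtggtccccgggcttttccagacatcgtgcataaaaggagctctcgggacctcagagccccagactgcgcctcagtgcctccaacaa
Of 32851 windows of this length, 2.98% held the first motif and 1.21% the NF-kB core. The interferon list had windows for 22 genes, and 11 held the first motif: Cxcl10, Gbp2, Gbp5, Ifit1, Ifit3, Ifit3b, Ifitm2, Isg15, Oas3, Rsad2 and Slfn5. Isg15 held 3 matches that overlap one another, and Ifit1 held 2. Among 13 cytokines with a window, 4 held the NF-kB core: Csf1, Cxcl1, Cxcl2 and Cxcl3. The same core was in 5 of the 22 interferon genes, Cxcl10, Gbp5, Ifi209, Ifit2 and Ifitm3; the one in Cxcl10 is not in capitals above. The windows of Ccl3, Il1a and Icam1, which lay on the same side as Cxcl2, held 0. The 2 matches in Cxcl2 overlap and are counted from each strand. A match says that these letters are present, and no binding was measured.

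The shallowest neutrophils could be compared with the rest only at a wider border. Under 750 genes there were 9 barcodes in library 1 and 14 in library 2, with 16505 and 16565 UMIs in all. Ccl3 was higher in them in both libraries, at 6180 CPM against 2208 in library 1 (log2 1.49, 1.16 to 1.79) and at 3200 against 1126 in library 2 (1.52, 1.07 to 1.92). These sums rest on few barcodes: 1 gave 66 of 102 UMIs in library 1, and 2 gave 52 of 53 in library 2. Without the 2 highest shallow barcodes of each library the shallow level was 1442 and 76.2 CPM. The other barcodes were not trimmed in the same way, so these levels cannot be set against theirs. Slfn4, an interferon-induced gene of myeloid cells, stood at 2302 against 862 CPM and at 1570 against 596. Jun stood at 2666 against 801, and at 1388 against 603. Without the 2 highest shallow barcodes of each library Slfn4 was at 1701 and 954 CPM, and Jun at 1188 and 557, again with the other barcodes not trimmed. Plac8 was lower, with 1 and 4 UMIs, and so was the ribosomal gene Rpsa, with 7 and 3. The median mitochondrial share was alike in both libraries, 0.647% and 0.588% under 750 genes and 0.641% and 0.638% above. S100a8 and S100a9 were higher in the shallow barcodes, at log2 1.64 and 1.36 in library 1 and 0.30 and 0.30 in library 2. The rule sets a minimum on their summed UMIs, and that minimum is a larger share of a shallow barcode. Selection therefore favours this direction, and these values are a description. In library 1, 1 shallow barcode gave 465 of the 1124 S100a9 UMIs and the most of S100a8 too, and without the highest barcode the levels there fell from 43199 to 24225 CPM for S100a8 and from 68101 to 50841 for S100a9.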

How the data were processed

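The values deposited by the authors are raw UMI counts, whole numbers for each gene in each barcode of both libraries. Per the file headers they come from Cell Ranger (6.1.2), and the submitters' processing notes add the genome build mm10. Gene positions come from GENCODE M21 (GRCm38), in which 54349 of 55401 gene IDs of the matrix were found. An annotation version and any subsampling of reads are not given in the sources used here. The members, the gene lists and the division by Retnlg were chosen with earlier results of these data known. UMIs were summed over the neutrophil barcodes of each library (247469 and 426032 UMIs) and scaled to CPM. Log2 ratios had 0.5 UMI added to each sum, with an exact conditional binomial 95% interval, and shares an exact Clopper-Pearson one. These cover counting error only. The interval of a list's median was taken from the ranked ratios of its genes. Genes needed 50 UMIs in both sums together, and a gene was called past 2-fold, with no test. Genes named for their ratios were the 10 highest and 10 lowest at 200 CPM or more whose interval left out 0, and the 15 highest over other barcodes. Range genes were the 12 most different each way in both libraries.

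The T cell set held 3 or more Cd3 UMIs, the macrophage set 20 or more C1q UMIs, and the monocyte set 10 or more Ly6c2 and 3 or more Csf1r UMIs. The T cell set also had under 5 C1q UMIs, and the macrophage set at most 1 Cd3 UMI. Both had under 20 S100 UMIs, which favours low shares of neutrophil genes in them. The monocyte set had under 5 C1q UMIs, at most 1 Cd3 UMI and at most 1 NK marker UMI, and left out the members. A first monocyte set that asked for Lyz2 held 1 barcode, since Lyz2 gave 1041 UMIs in all passing barcodes and its near copy Lyz1 17874, and was replaced after the data were seen. Alternatives changed the rule's limits, the scaling, the UMI minimum, the weights, the depth and the barcodes kept. Python 3.11.15, numpy 2.4.6, scipy 1.17.1 and pandas 2.3.3 were used, and the ratio code was tested on simulated data.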

Additional observations from a re-analysis of the deposited data

How the results depend on the processing

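The share of library 2 moved to 1.69% with at least 40 S100 UMIs and to 1.68% with at least 4 receptor UMIs, and without an S100 minimum the shares were 2.70% and 3.75%, a ratio of 1.39. It was above that of library 1 under every limit tried. The 60 higher and 46 lower of 1944 genes became 242 and 162 of 3879 with a minimum of 20 UMIs, 23 and 22 of 1030 with 100, 12 and 10 of 316 with barcodes thinned to 500 UMIs, and 38 and 20 of 1295 without the barcodes of 2000 or more genes. Without barcodes holding any Cd3 UMI there were 57 and 73 of 1512, so the higher side's share of such genes went from 56.6% to 43.8%. Apoe turned from 1.69 to -1.34 without the barcodes of 2000 or more genes. Between Retnlg ranges, 71 genes lower in both libraries became 179 with the barcodes of 2000 or more genes kept. The 42 higher and 71 lower became 11 and 41 after thinning to 1500 UMIs. The numbers of genes tested under these changed settings are not given here and may differ from the main one. These counts between ranges therefore cannot be compared as shares. The Ifitm family was left out when Retnlg-high barcodes at 100 or more interferon-stimulated UMIs per 10000 were counted. They were 13 of 27 and 14 of 59 with the border at 10, and 5 of 13 and 5 of 37 at 40. After thinning they were 11 of 22 and 6 of 46, a larger share in library 1 each time. The summed log2 ratio of these genes there, -2.17, was -0.71 with the Ifitm family, -1.48 and -2.47 at borders of 10 and 40, -2.02 with the barcodes of 2000 or more genes and -1.82 without the 2 highest barcodes of each library. A comparison at 500 genes had 0 shallow barcodes in library 1 and was not run. No paired analysis was possible because each genotype has 1 sample and no test was made. Depth limits what can be seen: 3 UMIs are 12.1 CPM in library 1 and 7.04 CPM in library 2.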
